A study of Mus musculus with 24 samples.

Results

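Interferons are antiviral cytokines that signal through paired receptor chains at the cell surface. The type I receptor is made of Ifnar1 and Ifnar2, and the type II receptor of Ifngr1 and Ifngr2. Janus kinases on these chains phosphorylate STAT proteins, and type I signalling assembles a complex with Stat2 and Irf9 that binds the interferon-stimulated response element (ISRE) and switches on genes for antiviral enzymes, RNA sensors and antigen processing. Notch signalling ends in a different complex, in which cleaved intracellular Notch, the DNA-binding protein RBPJ and a Mastermind-like coactivator sit together on target genes, and T-cell leukaemias often depend on it.

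A list of 39 genes of interferon reception and response was followed across a mouse T-cell leukaemia line, T6E, whose growth depends on Notch1. Of these, 36 could be read from a probe set with a single gene symbol, out of 19938 genes measured in all. Isg15, Ifi44 and Gbp2 had no such probe set and were not analysed here. The genes were listed by name and pathway role, with earlier results of these data already known. Counts of listed genes beside the share over all genes are therefore descriptive. Each gene was read from the probe set with its highest mean over the 24 arrays. RNA was measured on 24 arrays, in 8 groups of 3, which combine 4 constructs with 2 treatments. DNMAML is a dominant negative Mastermind-like protein, which blocks the coactivator step. ICN1 is intracellular Notch1, which acts without cleavage by gamma-secretase. R1984A is a form of intracellular Notch1 that is defective in dimerization on paired DNA sites. MigR1 is the empty vector, and every cell carried it or a construct in addition to its own Notch1. Cells of each construct received a gamma-secretase inhibitor (GSI), 1 uM Compound E, or the solvent DMSO, both for 6 h, and groups are named by construct and treatment, as in ICN1-GSI. The labels name no interferon treatment, and they do not say whether the transfected cells were clones or pools.

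The deposited values are on a log2 scale, so a difference of 1 is a 2-fold difference. Array medians lay between 3.90 and 4.18, and the correlation across genes within a group was 0.982 to 0.994. Notch genes mostly followed the labels. Over both treatments 7 of 8 checked Notch genes were lower in DNMAML cells than in MigR1 cells, 8 of 8 were higher in ICN1 cells and 6 of 8 were higher in R1984A cells. The 8 were Nrarp, Hey1, Dtx1, Hes1, Myc, Il2ra, Notch3 and Notch1. ICN1 and R1984A are themselves forms of Notch1, so its rise there is no check of a target. Myc was at 8.44 to 8.68 in R1984A-DMSO cells, below 9.24 to 9.32 in MigR1-DMSO cells. With GSI it was at 8.14 to 8.51 in R1984A cells and 7.07 to 8.18 in MigR1 cells. T-cell markers were read at mean levels of 6.59 to 6.82 per group, with 7 of 12 above every array median in all groups and Cd3e averaging 10.4, and 7 of the 12 differed among the groups. None of 5 B-cell and none of 6 natural killer markers were above every array median in all groups, with mean levels of 3.06 to 3.17 and 3.05 to 3.18. Of 10 myeloid and dendritic markers, 2 were above it, led by Cst3 at 6.73, the list averaged 3.79 to 3.88 per group, and 0 differed among the groups. Of 6 stromal markers 2 were above it, with list means of 3.96 to 4.09, and 1 differed among the groups. The replicate numbers differed, and not in the interferon genes alone. Array medians were 3.91 to 3.95 for replicate 1, 3.90 to 4.07 for replicate 2 and 4.05 to 4.18 for replicate 3. On the replicate 3 arrays of all 8 groups the interferon genes' mean deviation from the group mean was -0.248 to -0.0992. It was 0.0614 to 0.229 on replicate 1 arrays and -0.0525 to 0.0858 on replicate 2 arrays. Such deviations balance within a group, so a low replicate 3 and a high replicate 1 cannot be told apart. Over all genes the mean deviation stayed between -0.0102 and 0.00971. What the arrays of one number share is not stated in the labels. Every comparison was also fitted without the replicate 3 arrays and with the replicate number as a block. Separate cultures are not named for the 3 samples in each group either, and the p-values then rest on a spread that could be purely technical. In bulk RNA, fewer expressing cells and less RNA per cell cannot be told apart.

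Promoter sequence was set beside the values for the 28 of 36 genes that had an entry in the RefSeq promoter table, build GRCm38.p6. The ISRE core was searched as GAAA, any 2 bases and GAAA on both strands in the 250 bases before the annotated start. It was found in 8 of these 28 promoters, or 28.6%, against 3.46% of all 27025 promoters in the table. The 8 genes were Bst2, Gbp3, Ifit1, Ifit3, Oas1a, Oas3, Rsad2 and Stat2. The RBPJ-type letters TGGGAA, searched in the same way, were in 9 of the 28, or 32.1%, against 24.1% of all promoters. Only in Gbp3 did a match of one motif overlap a match of the other. The first 3 windows below are shown because these genes rose in ICN1 cells and hold the core, which is in capitals. With windows chosen in this way, a link of core and rise was not tested. Bst2, Gbp3, Ifit3, Oas3 and Stat2 hold the core and were not called there, and Irf9 and Ddx58 rose without it in these 250 bases. Ddx58 does hold a core just outside them, at positions 2 to 11 relative to the start. The Oas1a window, chr5:120907526-120907560 on the minus strand, holds 2 overlapping cores. The Ifit1 window, chr19:34640770-34640828 on the plus strand, holds 2 separate cores in the reverse orientation. The Rsad2 window, chr12:26456548-26456587 on the minus strand, holds a single reverse core. Irf9 is shown because it differed most clearly among the groups. Its promoter holds no ISRE core in this window, and the capitals mark TGGGAA at position -183 relative to the start and its reverse complement at -104, chr14:55603787-55603901 on the plus strand. All are written 5′ to 3′ on the gene's strand.
Oas1a: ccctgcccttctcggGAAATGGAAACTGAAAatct
Ifit1: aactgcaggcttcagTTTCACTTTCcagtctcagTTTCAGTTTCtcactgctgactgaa
Rsad2: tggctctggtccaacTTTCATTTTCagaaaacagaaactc
Irf9: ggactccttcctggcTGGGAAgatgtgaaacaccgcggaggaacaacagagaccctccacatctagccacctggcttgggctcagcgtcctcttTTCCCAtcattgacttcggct
A match is a description of letters and not evidence of binding.

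The first question was which of the 36 genes differed anywhere among the 8 groups. By limma's F-test with Benjamini-Hochberg adjustment over 19938 genes, 10 of 36 did, against 7.24% of all genes. They were Irf9 (adjusted p = 1.9e-06), Ifngr2 (8.1e-06), Ifnar1 (5.2e-04), Oasl2 (7.7e-04), Rsad2 (0.0038), Tap1 (0.0055), Oas1a (0.0086), Irf7 (0.023), Ifit1 (0.024) and Ifnar2 (0.039). By role, these were 3 of 4 receptor chains, 2 of 4 transducers and factors, 4 of 13 antiviral effectors and 1 of 4 antigen processing genes and GTPases. None of 3 RNA sensors, of 6 ubiquitin-like and ADP-ribosylation genes or of the 2 others passed this test. The count depended on single replicate numbers. It was 5 without the replicate 1 arrays, 2 without the replicate 2 arrays and 9 without the replicate 3 arrays. The share of all genes called also fell below 7.24% in each of these fits, as given in the section on processing. The share of all genes includes many dim genes. With dim genes left out 27 of the 36 stayed, and the share was 15.2%. The 10 of 36 above were counted without that filter, so that count and this share are not on the same genes.

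The receptor chains were higher in DNMAML cells. Averaged over both treatments, Ifnar1, Ifnar2 and Ifngr2 rose by 0.51, 0.43 and 0.49 on the log2 scale over MigR1 cells, and Ifngr1 showed 0.35 without passing the test. In ICN1 cells only Ifngr2 among the 4 chains passed, and it was lower there. Of the 12 T-cell markers 5 were also called in DNMAML cells over both treatments. Cd4 rose by 0.70, Cd247, the zeta chain of the T-cell receptor complex, by 0.82, Thy1 by 0.54 and Ptprc, which encodes CD45, by 0.35, and Rag1, a recombinase gene, fell by 1.31 (limma adjusted p 2.7e-04 to 0.023 over the 5). The part of these shifts in the receptor result was not tested.

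Ifnar1 is the chain that carries Tyk2. It was read at 7.10, 6.72 and 6.72 in DNMAML-GSI cells and 7.00, 6.76 and 6.94 in DNMAML-DMSO cells, against 6.68, 6.65 and 6.30 in MigR1-GSI cells and 6.26, 6.17 and 6.12 in MigR1-DMSO cells. All 6 DNMAML arrays lay above all 6 MigR1 arrays. In ICN1 cells Ifnar1 was 6.21, 6.35 and 6.04 with GSI and 6.10, 6.09 and 5.71 with DMSO, and in R1984A cells 6.53, 6.31 and 6.04 with GSI and 6.31, 6.37 and 6.65 with DMSO. The DNMAML arrays were thus the highest of the 24 for this gene. The averaged difference of DNMAML from MigR1 was 0.51 (SE 0.11, limma adjusted p = 0.0055), or 1.43-fold.

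Ifnar2, the chain that binds type I interferon with high affinity, gave 8.13, 8.02 and 8.11 in DNMAML-GSI cells and 7.94, 7.95 and 8.06 in DNMAML-DMSO cells. MigR1 cells gave 7.76, 7.91 and 7.65 with GSI and 7.69, 7.40 and 7.22 with DMSO. The DNMAML and MigR1 arrays again did not overlap, and the averaged difference was 0.43 (SE 0.10, limma adjusted p = 0.016). ICN1 cells were at 7.98, 7.79 and 7.35 with GSI and 7.60, 7.75 and 7.51 with DMSO, and R1984A cells at 7.74, 7.68 and 7.47 with GSI and 7.62, 7.72 and 7.40 with DMSO, so both overlapped MigR1 cells.

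Ifngr2 is the signalling chain of the type II receptor and its level limits how T cells respond to interferon gamma. It was read at 7.06, 7.19 and 7.39 in DNMAML-GSI cells and 7.18, 7.32 and 7.44 in DNMAML-DMSO cells, against 6.88, 7.17 and 6.58 in MigR1-GSI cells and 6.69, 6.44 and 6.85 in MigR1-DMSO cells. ICN1 cells had 6.31, 6.14 and 5.78 with GSI and 6.08, 6.25 and 6.01 with DMSO. R1984A cells had 6.04, 6.54 and 6.40 with GSI and 6.46, 6.52 and 6.30 with DMSO. Every ICN1 array lay below every MigR1 array, while DNMAML-GSI and MigR1-GSI arrays overlapped. Averaged over treatments, Ifngr2 rose by 0.49 in DNMAML cells (SE 0.11, limma adjusted p = 0.014) and fell by 0.68 in ICN1 cells (SE 0.11, adjusted p = 5.0e-04), both against MigR1 cells. In R1984A cells the difference was -0.39 (adjusted p = 0.091). These comparisons share the MigR1 arrays.

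Ifngr1, the ligand-binding chain of the type II receptor, had 6.33, 6.57 and 6.46 in DNMAML-GSI cells and 6.40, 6.66 and 6.25 in DNMAML-DMSO cells, against 6.48, 6.40 and 5.91 in MigR1-GSI cells and 6.00, 5.97 and 5.80 in MigR1-DMSO cells. With GSI the 2 constructs overlapped. With DMSO they did not, and the averaged difference was 0.35 (SE 0.11, limma adjusted p = 0.098). ICN1 cells had 6.27, 6.16 and 5.86 with GSI and 5.84, 6.19 and 6.00 with DMSO, and R1984A cells 6.24, 6.00 and 6.04 with GSI and 5.83, 6.32 and 5.89 with DMSO.

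**Figure D1:**
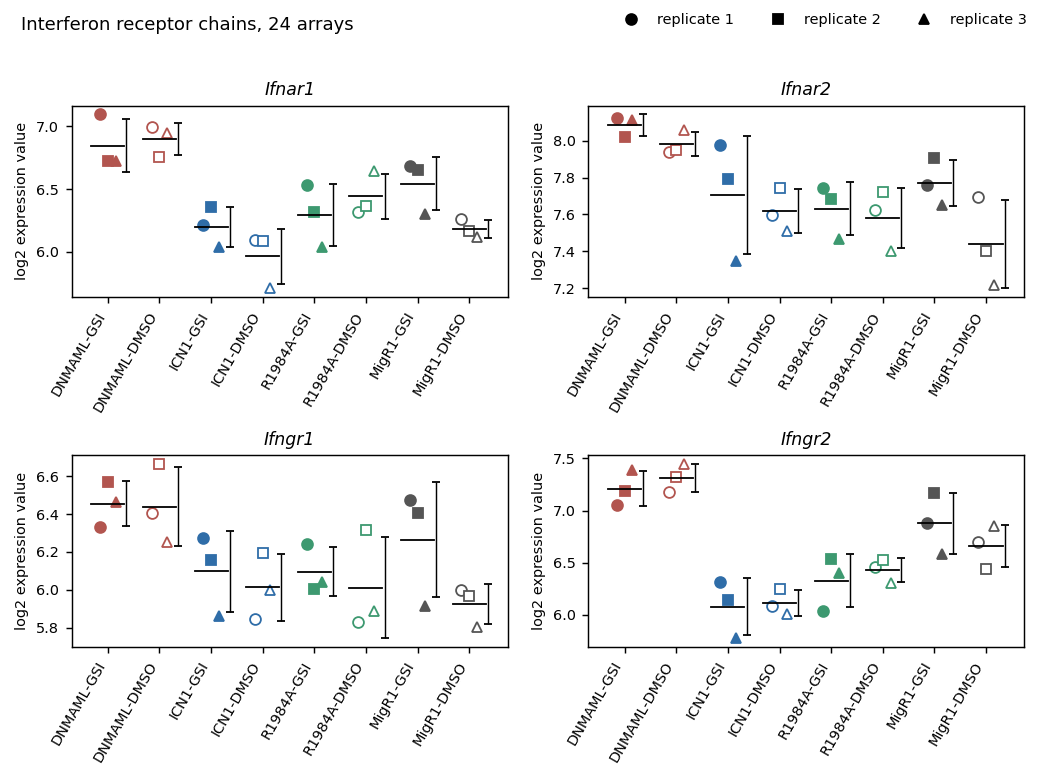
Log2 expression values (vertical axis, one panel per receptor chain) of the 24 arrays by group (horizontal axis), with filled symbols for GSI, open symbols for DMSO, shapes for replicate number, a line for the group mean and a bar for the SD over 3 arrays. The DNMAML arrays of Ifnar1 and Ifnar2 sit above all MigR1 arrays, and the ICN1 arrays of Ifngr2 sit below all MigR1 arrays.

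Within DMSO alone, 3 of 36 genes were called in DNMAML cells against MigR1 cells, all higher, where 1.94% of all genes were called. These were Ifnar1 (0.72, SE 0.15, limma adjusted p = 0.0088), Ifngr2 (0.65, SE 0.16, adjusted p = 0.033) and Ifnar2 (0.55, SE 0.14, adjusted p = 0.046). The count fell to 0 without replicate 1 of DNMAML-DMSO. It was 1 without replicate 2 or 3 of DNMAML-DMSO, without replicate 2 or 3 of MigR1-DMSO, and without all replicate 3 arrays. In the fits named here that left out 1 array, 0.933% to 1.23% of all genes were called. Same-numbered arrays deviated together in this comparison, and with the replicate number as a block limma called 8 of 36, adding Mx1, Mx2, Usp18, Tap1 and Ifngr1 (adjusted p 0.0013 to 0.030 over the 8), where 4.68% of all genes were called. Within GSI alone limma called 0 of 36 between DNMAML and MigR1 cells, with 0.191% of all genes called. At an unadjusted p under 0.05 there were 4 of 36, with 6.26% of all genes. These were Tap1 (0.48), Ifngr2 (0.33) and Ifnar2 (0.31) above MigR1-GSI and Oasl2 (-0.52) below it.

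Over both treatments 4 of 36 genes were called in DNMAML cells, all higher, against 3.18% of all genes. The fourth was Tap1, a subunit of the transporter that brings peptides to class I molecules. It had 6.00, 5.85 and 5.73 in DNMAML-GSI cells and 5.75, 5.73 and 5.83 in DNMAML-DMSO cells, against 5.37, 5.44 and 5.32 in MigR1-GSI cells and 5.35, 5.38 and 5.15 in MigR1-DMSO cells. No DNMAML array overlapped a MigR1 array, and the difference was 0.48 (SE 0.09, limma adjusted p = 0.0024). ICN1 cells had 5.63, 5.13 and 5.39 with GSI and 5.42, 5.07 and 5.08 with DMSO, and R1984A cells 5.45, 5.46 and 5.41 with GSI and 5.19, 5.46 and 5.52 with DMSO. The median difference of the 36 genes was 0.10, beside -0.01 over all genes, and 25 of 36 were above 0.

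Ifnar2 missed the threshold without replicate 3 of MigR1-DMSO (adjusted p = 0.059), as Ifngr2 did without replicate 2 of MigR1-DMSO (0.053). Without all replicate 3 arrays Ifnar1 was still called, while Tap1 (0.051), Ifnar2 (0.082) and Ifngr2 (0.10) were not. That fit called 2 of 36, and the gene beside Ifnar1 was lower in DNMAML cells. With the replicate block limma called 9 of 36, all higher, adding Mx1 (0.40), Mx2 (0.58), Usp18 (0.47), Psmb9 (0.38) and Ifngr1 (0.35), with adjusted p from 7.8e-04 to 0.018 over the 9 and 7.14% of all genes called. Mx1 and Mx2 encode antiviral dynamin-like GTPases, Usp18 removes Isg15 and restrains type I signalling, and Psmb9 is an immunoproteasome subunit. Without the block their adjusted p-values were 0.24, 0.27, 0.44 and 0.45.

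Ifnar2, Ifnar1 and Ifngr2 lie close together on mouse chromosome 16, in the order Ifnar2, Il10rb, Ifnar1, Ifngr2, Tmem50b, Dnajc28 and Gart in the RefSeq gene table. Their neighbours did not all follow them in DNMAML cells over both treatments. Il10rb, a receptor chain for interleukin 10 and type III interferon that was dim here, differed by 0.12 (limma adjusted p = 0.77), Tmem50b by 0.15 (0.80) and Dnajc28 by 0.03 (0.97). Dnajc28 was dim too, at 3.70 in DNMAML and 3.68 in MigR1 cells, so these dim genes say little about whether neighbours followed. Gart, a purine synthesis enzyme, fell by 0.40 (SE 0.09, adjusted p = 0.012). In R1984A cells Tmem50b rose by 0.68 (adjusted p = 0.012), while Ifngr2 beside it was at -0.39.

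Irf9, the DNA-binding partner of Stat2, rose in both Notch-expressing lines. It was read at 6.75, 6.00 and 6.35 in ICN1-GSI cells and 6.19, 6.19 and 6.49 in ICN1-DMSO cells. R1984A cells had 6.45, 6.36 and 6.48 with GSI and 6.46, 6.53 and 6.72 with DMSO. DNMAML cells had 5.26, 5.40 and 5.03 with GSI and 5.42, 5.36 and 5.11 with DMSO, and MigR1 cells had 5.70, 5.59 and 5.03 with GSI and 5.59, 5.46 and 5.06 with DMSO. All 12 arrays of the 2 Notch constructs lay above all 12 arrays of DNMAML and MigR1. Averaged over treatments the difference from MigR1 was 0.92 in ICN1 cells (SE 0.13, limma adjusted p = 4.5e-05, 1.89-fold) and 1.10 in R1984A cells (SE 0.13, adjusted p = 4.6e-06, 2.14-fold). In DNMAML cells it was -0.14 (adjusted p = 0.77). Both Irf9 calls stood with each array left out in turn and without all replicate 3 arrays.

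The rise of Irf9 was seen within each treatment. With DMSO it was 0.92 in ICN1 cells (SE 0.18, limma adjusted p = 0.010) and 1.20 in R1984A cells (SE 0.18, adjusted p = 4.7e-04). With GSI it was 0.92 in ICN1 cells (SE 0.18, adjusted p = 0.0036) and 0.99 in R1984A cells (SE 0.18, adjusted p = 0.0027). ICN1 and R1984A did not differ by the test, with differences of ICN1 from R1984A of -0.28 in DMSO (95% interval -0.66 to 0.09) and -0.06 in GSI (-0.44 to 0.31). The ICN1 call in DMSO was lost without replicate 3 of ICN1-DMSO (adjusted p = 0.094), without replicate 3 of MigR1-DMSO (0.10) and without all replicate 3 arrays (0.18). The R1984A call in GSI was lost without all replicate 3 arrays (0.052). Fits on the 2 groups alone gave adjusted p-values of 0.13 for ICN1 and 0.066 for R1984A in GSI.

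Irf7, the factor that amplifies type I interferon production, was at 4.85, 4.51 and 4.48 in ICN1-DMSO cells and 4.97, 4.78 and 4.28 in R1984A-DMSO cells, against 4.17, 3.77 and 4.04 in MigR1-DMSO cells. With GSI it was 4.46, 4.08 and 4.24 in ICN1 cells and 4.56, 4.11 and 4.31 in R1984A cells, against 4.43, 4.19 and 3.95 in MigR1 cells. The DMSO groups of the Notch constructs did not overlap MigR1-DMSO, and the GSI groups did overlap MigR1-GSI. DNMAML cells had 3.86, 4.04 and 3.92 with GSI and 4.03, 4.20 and 4.22 with DMSO. Only the difference of R1984A-DMSO from MigR1-DMSO passed, at 0.68 (SE 0.17, limma adjusted p = 0.045). That call was lost in 5 of 6 fits that left out an array (adjusted p up to 0.37), after a second quantile normalization (0.16), with every probe set in the fit (0.050) and with only the 2 groups (0.22).

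Stat2 and Irf1 passed no test in any comparison. Stat2, the transactivating subunit beside Irf9, had group means between 5.58 and 5.96, and its averaged differences from MigR1 were 0.17 in DNMAML, -0.04 in ICN1 and 0.18 in R1984A cells. Irf1, a factor induced chiefly by interferon gamma, had group means between 4.73 and 5.47, with differences of 0.02, -0.31 and 0.16 in the same order. It is the single gene of the 36 with more than 1 probe set.

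**Figure D2:**
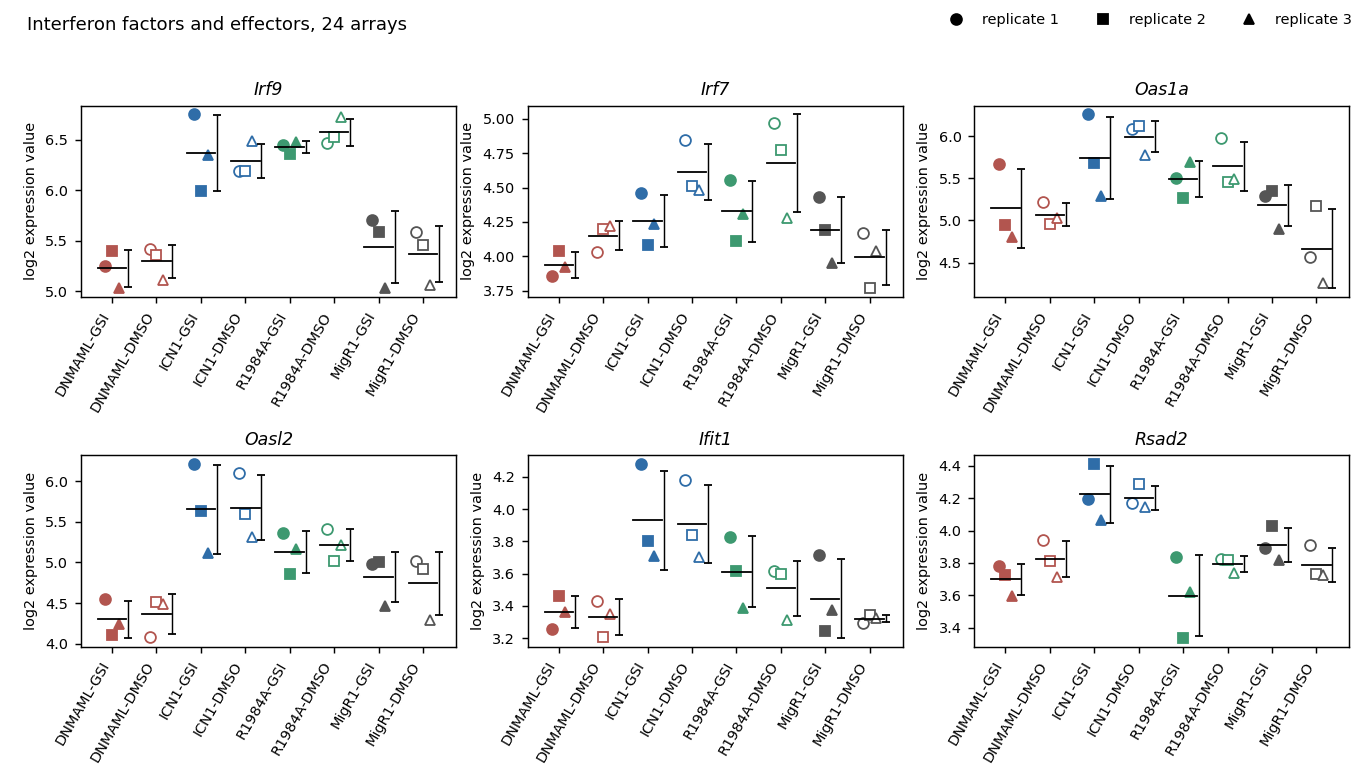
Log2 expression values (vertical axis, one panel per gene) of Irf9, Irf7 and 4 antiviral effectors on the 24 arrays by group (horizontal axis), with filled symbols for GSI, open symbols for DMSO, shapes for replicate number, a line for the group mean and a bar for the SD over 3 arrays. Irf9 in ICN1 and R1984A cells lies above every DNMAML and MigR1 array, and Rsad2 and Oasl2 are highest in ICN1 cells.

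Of the 13 antiviral effectors 5 rose in ICN1 cells, namely Oas1a, Oasl2, Ifit1, Ifit2 and Rsad2, and 0 fell. Over both treatments 8 of 36 genes were called in ICN1 cells against MigR1 cells, 7 higher and 1 lower, where 3.43% of all genes were called. The median difference of the 13 was 0.32, and over all genes it was -0.01. The other 3 calls were Irf9 and the RNA sensor Ddx58, both higher, and Ifngr2, lower. T-cell markers differed here too, with Rag1 (3.21), Cd28 (0.81) and Ptcra (0.75) higher and Cd4 (-0.56), Ptprc (-0.55) and Thy1 (-0.47) lower in ICN1 cells, and in R1984A cells Cd28 (1.14) and Cd3e (0.25) were higher and Cd4 (-0.47) lower, all called by limma. The part of these shifts in the interferon genes' results was not tested.

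Oas1a belongs to the oligoadenylate synthetases, which switch on RNase L. It had 6.26, 5.68 and 5.29 in ICN1-GSI cells and 6.09, 6.12 and 5.78 in ICN1-DMSO cells, against 5.30, 5.35 and 4.90 in MigR1-GSI cells and 4.57, 5.17 and 4.25 in MigR1-DMSO cells. R1984A cells had 5.51, 5.26 and 5.69 with GSI and 5.98, 5.46 and 5.50 with DMSO, and DNMAML cells had 5.67, 4.95 and 4.81 with GSI and 5.22, 4.96 and 5.03 with DMSO. ICN1-DMSO arrays all exceeded MigR1-DMSO arrays, while with GSI the lowest ICN1 array fell within the MigR1 range. The averaged ICN1 difference was 0.95 (SE 0.17, limma adjusted p = 0.0013), and in R1984A cells it was 0.64 (adjusted p = 0.053). Within DMSO the ICN1 difference was 1.33 (SE 0.25, adjusted p = 0.0053), and it was lost without replicate 3 of MigR1-DMSO (0.058). The averaged call stood with each array left out.

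Oasl2, a relative of these enzymes, had 6.21, 5.64 and 5.12 in ICN1-GSI cells and 6.10, 5.60 and 5.31 in ICN1-DMSO cells, against 4.98, 5.01 and 4.46 in MigR1-GSI cells and 5.01, 4.92 and 4.29 in MigR1-DMSO cells. Every ICN1 array exceeded every MigR1 array, and the averaged difference was 0.88 (SE 0.17, limma adjusted p = 0.0028). R1984A cells had 5.37, 4.85 and 5.17 with GSI and 5.41, 5.02 and 5.22 with DMSO (difference 0.39, adjusted p = 0.46). DNMAML cells had the lowest group means, with 4.55, 4.10 and 4.24 with GSI and 4.08, 4.52 and 4.49 with DMSO (difference -0.45, adjusted p = 0.22).

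Ifit1 and Rsad2 were dim genes that rose in ICN1 cells. Ifit1, which binds foreign RNA ends, had 4.28, 3.80 and 3.71 in ICN1-GSI cells and 4.18, 3.84 and 3.71 in ICN1-DMSO cells, against 3.72, 3.24 and 3.37 in MigR1-GSI cells and 3.30, 3.34 and 3.32 in MigR1-DMSO cells. The difference was 0.54 (SE 0.11, limma adjusted p = 0.0041), and the lowest ICN1 arrays, at 3.71, lay just under the highest MigR1 array. R1984A cells had 3.83, 3.62 and 3.39 with GSI and 3.61, 3.60 and 3.31 with DMSO, and DNMAML cells had 3.26, 3.46 and 3.36 with GSI and 3.43, 3.21 and 3.35 with DMSO.

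Rsad2 encodes viperin, a radical enzyme that blocks viral replication. It had 4.19, 4.41 and 4.07 in ICN1-GSI cells and 4.17, 4.29 and 4.15 in ICN1-DMSO cells, against 3.89, 4.03 and 3.82 in MigR1-GSI cells and 3.91, 3.73 and 3.73 in MigR1-DMSO cells. No ICN1 array overlapped a MigR1 array. R1984A cells had 3.83, 3.34 and 3.62 with GSI and 3.83, 3.82 and 3.74 with DMSO, and DNMAML cells had 3.78, 3.72 and 3.59 with GSI and 3.94, 3.81 and 3.72 with DMSO. The averaged ICN1 difference was 0.36 (SE 0.08, limma adjusted p = 0.013), and it was lost without all replicate 3 arrays (0.084). All Rsad2 values lay near or below the array medians of 3.90 to 4.18 outside ICN1 cells.

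Ifit2 averaged 6.31 ± 0.28 in ICN1 cells and 5.78 ± 0.21 in MigR1 cells (SD, n = 6 arrays each), a rise of 0.54 (SE 0.13, limma adjusted p = 0.021). Ddx58, which encodes the RNA sensor RIG-I, averaged 6.09 ± 0.35 in ICN1, 6.06 ± 0.23 in R1984A and 5.42 ± 0.37 in MigR1 cells (SD, n = 6 arrays each). It rose by 0.67 in ICN1 cells (SE 0.16, adjusted p = 0.018) and by 0.64 in R1984A cells (SE 0.16, adjusted p = 0.036). These calls were close to the threshold. The Ifit2 call was lost without replicate 1 of ICN1-DMSO (0.072), replicate 1 of ICN1-GSI (0.076), replicate 3 of MigR1-DMSO (0.052) or replicate 3 of MigR1-GSI (0.071). The ICN1 call of Ddx58 was lost without the same 4 arrays (0.064 to 0.070) and without all replicate 3 arrays (0.061), and its R1984A call in 9 of 12 fits that left out an array (up to 0.14). Neither gene passed the F-test over the 8 groups, with adjusted p of 0.13 for Ifit2 and 0.11 for Ddx58. The other 2 RNA sensors, Ifih1 and Dhx58, had group means below every array median and passed no test, although single Dhx58 arrays reached 4.50 (R1984A-DMSO).

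Within single treatments fewer genes were called in ICN1 cells. With DMSO 2 of 36 were higher than in MigR1 cells, Irf9 and Oas1a, where 0.727% of all genes were called. The count was 0 without replicate 3 of MigR1-DMSO and 1 without replicate 3 of ICN1-DMSO, where 0.456% and 0.401% of all genes were called. Same-numbered arrays deviated together here, and with the replicate block limma called 8 of 36, all higher, adding Irf7, Ifit1, Ifit2, Ddx58, Oasl2 and Parp9 (adjusted p 3.0e-04 to 0.020 over the 8), where 1.49% of all genes were called. With GSI 2 of 36 were called, Irf9 higher and Ifngr2 lower, where 2.35% of all genes were called. Ifngr2 was at -0.80 (SE 0.16, adjusted p = 0.0047) and stood in all 6 fits that left out an array, but not in a fit of the 2 groups alone (0.12).

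In R1984A cells the called genes were Irf9, Ddx58 and a pair of ADP-ribosylation genes. Over both treatments 4 of 36 were called, all higher, where 2.18% of all genes were called. Parp14, a mono-ADP-ribosyltransferase, averaged 5.42 ± 0.20 in R1984A cells and 4.81 ± 0.23 in MigR1 cells (SD, n = 6 arrays each), a rise of 0.61 (SE 0.14, limma adjusted p = 0.012). Parp9, which works in a complex with the ubiquitin ligase Dtx3l, averaged 6.14 ± 0.19 in R1984A cells and 5.68 ± 0.19 in MigR1 cells (SD, n = 6 arrays each), a rise of 0.46 (SE 0.11, adjusted p = 0.018). The R1984A and MigR1 arrays did not overlap for either gene. In ICN1 cells the differences from MigR1 were 0.19 for Parp14 (adjusted p = 0.66) and 0.38 for Parp9 (0.061). Of the 6 measured ubiquitin-like and ADP-ribosylation genes, 2 rose, and the median of the 6 was 0.28. The antiviral effectors had 0 of 13 called in R1984A cells and a median of -0.02. Among them Oas1a (0.64, limma adjusted p = 0.053) and Xaf1 (0.53, 0.098) were higher without passing. The count of 0 is not a test against ICN1 cells, and that direct comparison is given below.

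Parp14 stood with each array left out but not after a second quantile normalization (adjusted p = 0.054). Parp9 was lost without replicate 1 of R1984A-DMSO (0.071), replicate 2 of R1984A-GSI (0.053), replicate 3 of MigR1-DMSO (0.079) or replicate 3 of MigR1-GSI (0.066). The count of 4 became 2 without replicate 1 of R1984A-DMSO, without replicate 2 of R1984A-GSI and without replicate 3 of MigR1-DMSO. Of all genes, 1.96%, 1.97% and 1.84% were called in these fits.

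Within DMSO 2 of 36 were called in R1984A cells, Irf9 and Irf7, both higher, where 0.978% of all genes were called. The count was 1 without replicate 1 or 2 of R1984A-DMSO and without replicate 1 or 3 of MigR1-DMSO. Of all genes, 0.652% to 0.777% were called in these fits. With the replicate block, where same-numbered arrays deviated together, limma called 6 of 36, adding Oas1a, Ddx58, Parp9 and Parp14 (adjusted p 1.2e-04 to 0.0071 over the 6), and 1.84% of all genes. Within GSI Irf9 alone of the 36 was called, where 1.36% of all genes were. Without replicate 3 of MigR1-GSI the count was 2, where 1.22% of all genes were called.

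**Figure D3:**
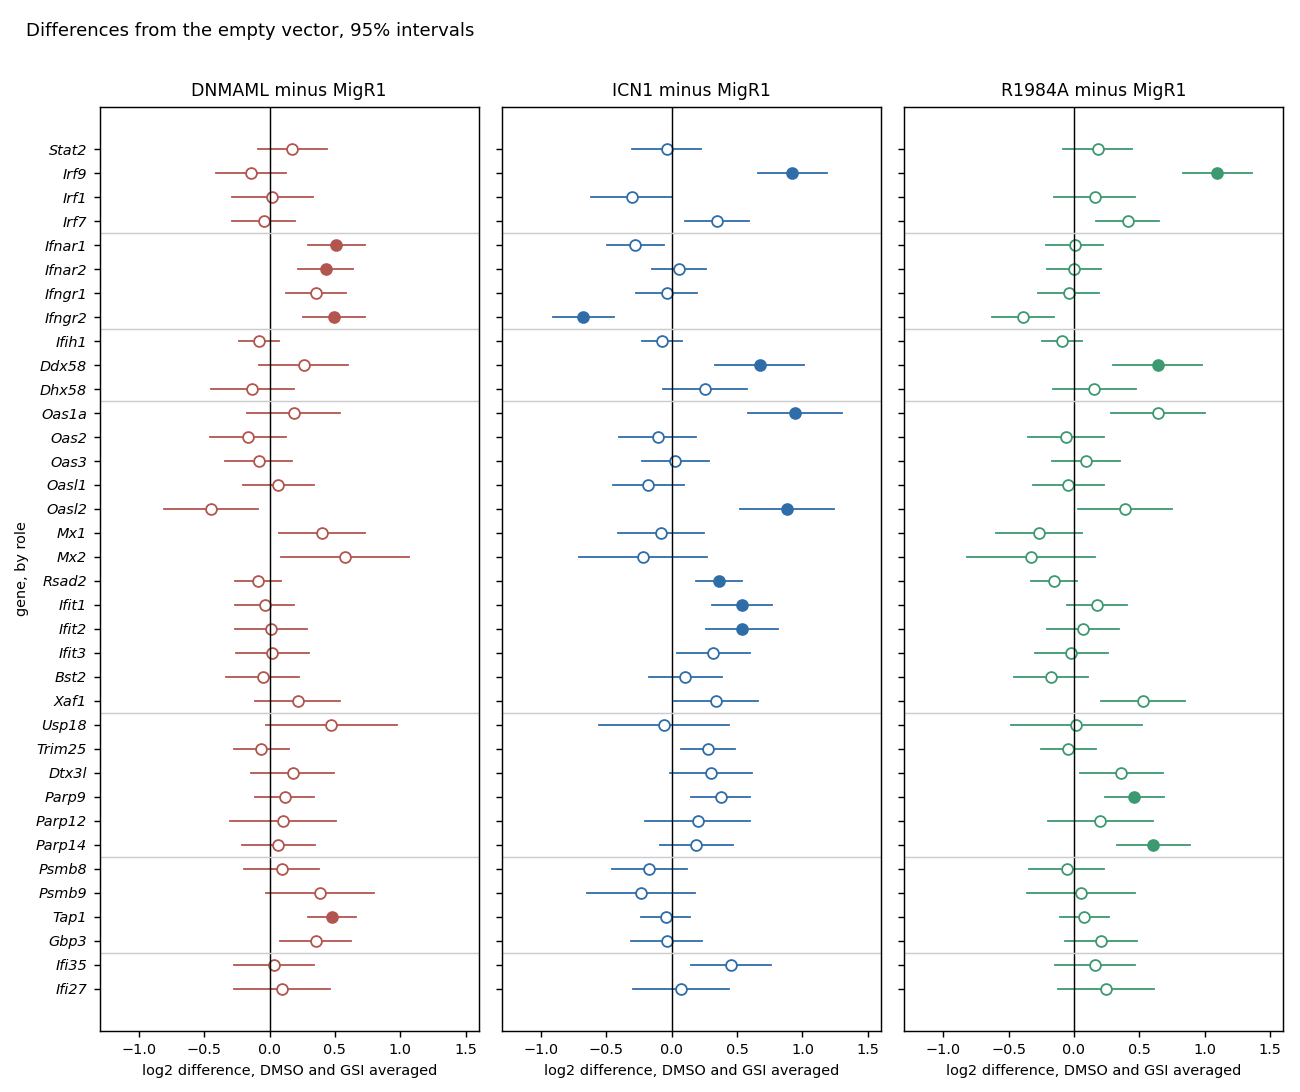
Log2 difference from MigR1 cells (horizontal axis, DMSO and GSI averaged) of each of the 36 genes, grouped by role (vertical axis), in DNMAML, ICN1 and R1984A cells, with 95% intervals from limma and filled symbols for called genes. The called genes are 3 receptor chains and Tap1 in DNMAML cells, Irf9, Ddx58, 5 effectors and Ifngr2 in ICN1 cells, and Irf9, Ddx58, Parp9 and Parp14 in R1984A cells, and all 3 panels share the MigR1 arrays.

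The 3 constructs were all set against the same MigR1 arrays, so their differences are given side by side without a measure of likeness. The receptor chains had medians of 0.46 in DNMAML, -0.16 in ICN1 and -0.02 in R1984A cells over both treatments. The antiviral effectors had medians of 0.01, 0.32 and -0.02 in the same order. The antigen processing genes and GTPases had medians of 0.37, -0.11 and 0.07, and the transducers and factors of -0.01, 0.15 and 0.30. Over all genes each median was -0.01.

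ICN1 and R1984A cells were also compared directly. Notch1 itself was read at 7.32 in ICN1-GSI and 7.07 in R1984A-GSI cells, and at 7.28 in ICN1-DMSO and 7.01 in R1984A-DMSO cells (means of 3 arrays), and the part of this level in the comparison was not tested. With DMSO limma called 0 of 36 genes, where 0.963% of all genes were called. At an unadjusted p under 0.05 there were 7 of 36, with 7.07% of all genes. With GSI 1 of 36 was called, where 1.1% of all genes were. That gene was Rsad2, higher in ICN1 cells by 0.63 (SE 0.12, adjusted p = 0.0065). It was lost without replicate 2 of R1984A-GSI (0.071), the lowest array of its group, and in a fit of the 2 groups alone (0.23). In DMSO, where same-numbered arrays deviated together, the replicate block gave 3 of 36, all higher in ICN1 cells, with 2.29% of all genes called. They were Ifit2 (0.47, adjusted p = 0.021), Rsad2 (0.41, 0.045) and Trim25 (0.36, 0.038), a ubiquitin ligase that activates RIG-I. For Oasl2 the difference of ICN1 from R1984A was 0.46 in DMSO (95% interval -0.05 to 0.97) and 0.52 in GSI (0.01 to 1.03), with adjusted p of 0.79 and 0.54.

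Treatment with GSI for 6 h, which stops cleavage of the cells' own Notch1, gave no called change in these genes. By limma 0 of 36 were called in DNMAML, ICN1, R1984A or MigR1 cells, where 0.00502%, 0%, 0% and 0.166% of all genes were called. At an unadjusted p under 0.05 the counts were 0, 1, 1 and 4 of 36, with 2.54%, 2.37%, 3.18% and 4.88% of all genes. The median differences of GSI from DMSO over the 36 genes were -0.05 in DNMAML, -0.04 in ICN1, -0.11 in R1984A and 0.07 in MigR1 cells. In MigR1 cells the differences ran from -0.40 (Dhx58) to 0.52 (Oas1a), and the 4 at an unadjusted p under 0.05 were Oas1a, Ifnar1 (0.36), Ifngr1 (0.34) and Ifnar2 (0.33), all higher with GSI. In ICN1 and in R1984A cells the single such gene was Irf7, at -0.35 in both.

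The size that these data allow is wide. For Irf9 the difference of GSI from DMSO was 0.08 in ICN1 cells (95% interval -0.30 to 0.45), -0.14 in R1984A cells (-0.52 to 0.23) and 0.07 in MigR1 cells (-0.30 to 0.45). For Ifngr2 it was -0.04 in ICN1 cells (-0.37 to 0.30) and 0.22 in MigR1 cells (-0.12 to 0.55).

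**Figure D4:**
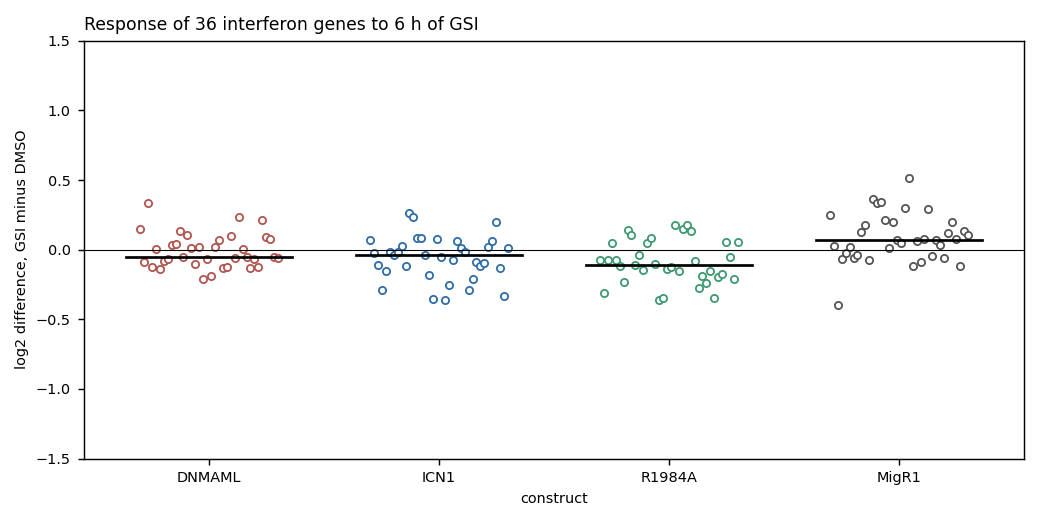
Log2 difference of GSI from DMSO (vertical axis) of the 36 genes in each construct (horizontal axis), with a line at the median. The points lie between -0.40 and 0.52, and the medians are -0.05, -0.04, -0.11 and 0.07 from left to right.

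Whether the response to GSI differed between a construct and MigR1 was tested as an interaction. Limma called 0 of 36 for DNMAML, ICN1 and R1984A, where 0.00502%, 0.015% and 0.0251% of all genes were called. At an unadjusted p under 0.05 there were 1, 2 and 2 of 36, with 3.11%, 3.19% and 3.52% of all genes. Those genes were Dhx58 (0.73) for DNMAML, Oas1a (-0.77) and Irf7 (-0.55) for ICN1, and Irf7 (-0.55) and Ifnar1 (-0.51) for R1984A.

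Other genes of the interferon pathway were counted in the same fit, from a list of 100 of which 86 were measured. Of these 14 differed among the 8 groups by the F-test, where 7.24% of all genes did. Over both treatments 3 of 86 were higher in DNMAML cells than in MigR1 cells, 3 were higher and 1 lower in ICN1 cells, and 5 were higher in R1984A cells, where 3.18%, 3.43% and 2.18% of all genes were called. With GSI 2 were higher in R1984A cells and 1 was lower in ICN1 cells than in MigR1 cells, and with DMSO 2 were higher in R1984A cells, where 1.36%, 2.35% and 0.978% of all genes were called. ICN1 against R1984A gave 2 with GSI, both lower in ICN1 cells, where 1.1% of all genes were called. In the other comparisons limma called 0 of 86.

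Of the 14, the 6 with the lowest F-test p are named. Irf2, a factor that competes with Irf1 on DNA, was at 8.02, 7.80 and 8.11 in R1984A-GSI cells and 7.93, 8.04 and 7.96 in R1984A-DMSO cells, against 7.34, 7.00 and 6.34 in MigR1-GSI cells and 7.33, 7.19 and 7.02 in MigR1-DMSO cells. All R1984A arrays exceeded all MigR1 arrays, and the averaged rise was 0.94 (SE 0.12, limma adjusted p = 1.5e-05). Jak2, the kinase carried by Ifngr2, was at 7.66, 7.56 and 7.23 in ICN1-GSI cells against 8.03, 8.14 and 8.08 in MigR1-GSI cells, a fall of 0.60 (SE 0.11, adjusted p = 0.0023) between groups that did not overlap. Over both treatments Jak2 was at -0.36 in ICN1 cells (SE 0.08, adjusted p = 0.0073), and without all replicate 3 arrays the 2 calls had adjusted p of 0.060 and 0.14. With DMSO alone Jak2 was not called, and the groups overlapped. It was at 7.66, 7.71 and 7.46 in ICN1-DMSO cells and 7.67, 7.81 and 7.74 in MigR1-DMSO cells.

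Irf8, a factor of myeloid and lymphoid cells, averaged 6.07 ± 0.39 in DNMAML cells and 5.48 ± 0.11 in MigR1 cells (SD, n = 6 arrays each), a rise of 0.59 (limma adjusted p = 0.015) that was lost without replicate 2 of DNMAML-DMSO (0.052). Gbp4, a guanylate-binding GTPase, averaged 6.72 ± 0.25 in DNMAML cells and 6.07 ± 0.32 in MigR1 cells (SD, n = 6 arrays each), a rise of 0.65 (adjusted p = 0.030) that was lost in 8 of 12 fits that left out an array (up to 0.091). Il10ra, the ligand-binding chain of the interleukin 10 receptor, averaged 5.77 ± 0.29 in R1984A cells and 5.00 ± 0.23 in MigR1 cells (SD, n = 6 arrays each), a rise of 0.77 (adjusted p = 0.0014). Samhd1, which breaks down deoxynucleotides, averaged 4.02 ± 0.30 in R1984A cells and 3.44 ± 0.12 in MigR1 cells (SD, n = 6 arrays each), a rise of 0.58 (adjusted p = 0.0016) in a dim gene that was lost without all replicate 3 arrays (0.064). The Irf2 and Il10ra calls over both treatments stood in all fits that left out an array.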

How the data were processed

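RNA of 24 T6E samples was measured on Affymetrix Mouse Gene 1.0 ST arrays. The deposited log2 values, 1 per probe set and array, were used without further scaling. The authors processed the arrays with oligo and limma, per the submitters' processing notes, which name no version. How the background was corrected and the arrays normalized was not given in the sources used here. A log2 scale was read from the deposited range of 1.28 to 13.47. Number of arrays, and not read depth, limits the precision.

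Of 35556 probe sets, 21789 carried 1 gene symbol in the platform annotation, 1621 several and 12146 none in the table used here. Of the 21789, 21698 matched a RefSeq gene by identifier and 0 symbols changed. The probe set with the highest mean was kept per gene, which left 19938 genes, with no filter on dim genes and no detection call.

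A single limma model (version 3.58.1, R 4.3.3) of all 24 arrays held a mean for each group, with 16 residual degrees of freedom and a prior of 6.56. Genes were called, and are written as risen or fallen, at a two-sided Benjamini-Hochberg adjusted p under 0.05 over all 19938 genes. Means over both treatments weigh GSI and DMSO equally. The script was tested on simulated data. The genes, roles and lists were chosen with earlier results of these data known. Values on every array are given for the 10 genes with the lowest F-test p and for the receptor chains, and values for up to 6 other pathway genes. Replicate numbers come from the sample titles and nothing in the labels says what they share. They were taken to pair arrays where the deviations of every same-numbered pair from the group means correlated over 0.1 across genes, which held for 9 of 18 comparisons, with lowest correlations of 0.106 to 0.225. Promoter sequences came from RefSeq, build GRCm38.p6. The RefSeq gene table was used for names and gene order only. Alternatives were a second quantile normalization, leaving out dim genes, array weights, the replicate block, every probe set, only the groups compared, each array left out and, chosen after seeing the data, all replicate 3 arrays left out.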

Additional observations from a re-analysis of the deposited data

How the results depend on the processing

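The 49 called differences followed here came from the 36 listed genes, the 86 other pathway genes and the neighbours Gart and Tmem50b. None of the 49 changed sign in any alternative run. Of them, 43 were still called after a second quantile normalization, 48 with array weights, 49 with the replicate block, 47 with every probe set, 30 with only the groups compared and 30 without all replicate 3 arrays. Leaving out 1 array at a time gave 474 pairs of a call and an omitted array, and the call stood in 378 and was lost in 96. With dim genes left out, all 43 that could be tested were called. Fewer arrays enter the last kinds of fit, and otherwise the cause was not tested. All counts of 0 for GSI, for DNMAML against MigR1 in GSI and for the interactions were 0 in all alternatives.

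Of the 36 genes, DNMAML against MigR1 in DMSO (3 called) gave 5 after a second quantile normalization, 5 with array weights, 8 with the replicate block, 0 to 2 with an array left out and 1 without all replicate 3 arrays. ICN1 against MigR1 in DMSO (2) gave 7 with array weights, 8 with the block and 0 to 2 with an array left out. R1984A against MigR1 in DMSO (2) gave 1 after quantile normalization, 4 without dim genes, 5 with array weights, 6 with the block, 1 with every probe set, 1 with only the groups compared and 1 to 2 with an array left out. In GSI, ICN1 against MigR1 (2) gave 6 with the block and 0 with only the groups compared, and R1984A against MigR1 (1) gave 3 with array weights, 2 with the block, 0 with only the groups compared and 1 to 2 with an array left out. ICN1 against R1984A gave in DMSO (0) 1 with array weights and 3 with the block, and in GSI (1) 0 without dim genes, 3 with array weights, 2 with the block, 0 with only the groups compared and 0 to 1 with an array left out. Rsad2, the 1 gene called there, is itself below the filter on dim genes. Over both treatments, DNMAML (4) gave 9 with the block, 3 to 4 with an array left out and 2 without all replicate 3 arrays (1 higher and 1 lower), and R1984A (4) gave 9 with the block and 2 to 5 with an array left out. The F-test (10) gave 18 with array weights, 20 with the block and 2 to 9 with a replicate number left out.

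The share of all genes called moved as well. For the F-test it was 13.4% with array weights, 12.8% with the block and 2.1%, 3.56% and 6.08% without replicate 2, 1 and 3, against 7.24% in the fit as reported. Against MigR1 in DMSO it was 4.18%, 1.58% and 1.7% with array weights and 4.68%, 1.49% and 1.84% with the block for DNMAML, ICN1 and R1984A, and quantile normalization gave 2.57% for DNMAML and 0.968% for R1984A. For R1984A in DMSO it was 0.913% with every probe set and 0.647% with only the groups compared. With an array left out it was 0.933% to 1.46% for DNMAML, 0.396% to 0.527% for ICN1 and 0.652% to 0.777% for R1984A. With GSI it was 4.81% for ICN1 and 2.49% for R1984A with the block, 3.46% for R1984A with array weights, and 0.838% for ICN1 and 0.481% for R1984A with only the groups compared. For ICN1 against R1984A it was 1.93% in DMSO and 3.71% in GSI with array weights, and 2.29% and 2.89% with the block. In GSI this comparison gave 0.256% with only the groups compared and 0.577% to 0.923% with an array left out. Over both treatments the block gave 7.14% for DNMAML, 6.7% for ICN1 and 3.76% for R1984A. With dim genes left out, 9969 genes were tested and 27 of the 36 listed genes stayed. The share was then 15.2% for the F-test. Over both treatments it was 7.78% for DNMAML, 7.6% for ICN1 and 4.47% for R1984A. It was 2.15% for R1984A against MigR1 in DMSO and 2.63% for ICN1 against R1984A in GSI.

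Same-numbered arrays did not all deviate together in the comparisons of ICN1 and R1984A with MigR1 in GSI, of ICN1 with R1984A in GSI, or of ICN1 and R1984A with MigR1 over both treatments, so the block counts there, including 12 for ICN1 over both treatments, rest on a shared number only. The block ended no call.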

Other observations

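Beside the genes named by rule, other called genes of the pathway list were Ifitm3 (1.22, limma adjusted p = 0.0055), Ifitm1 (0.36, 0.019) and Daxx (0.48, 0.028), higher in ICN1 cells than in MigR1 cells over both treatments, where these names were chosen after their values were seen. Ifitm3 and Ifitm1 encode membrane proteins that restrict the entry of viruses. Ifitm3 averaged 6.78 ± 0.40 in ICN1 cells and 5.57 ± 0.45 in MigR1 cells (SD, n = 6 arrays each), with no overlap, and its call stood in every alternative, whereas Ifitm1 and Daxx were lost in several. In R1984A cells Socs3, an inhibitor of JAK kinases, rose by 0.62 (adjusted p = 0.0027) and stood in every alternative, and Trim30a rose by 0.34 (adjusted p = 0.028) and did not. In DNMAML cells Sp100, a protein of nuclear bodies, rose by 0.72 (adjusted p = 0.014) and was lost without replicate 3 of MigR1-DMSO (0.052).

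With the 50 bases after the annotated start added to the promoter window, the ISRE core was found in 10 of 28 promoters, or 35.7%, against 3.99% of all, and TGGGAA in 11, or 39.3%, against 28.3% of all.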
